A study of Mus musculus with 8 samples.

Results

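The regulators of G protein signalling (RGS) described here are 8 genes, Rgs1, Rgs2, Rgs3, Rgs10, Rgs14, Rgs16, Rgs18 and Rgs19, out of 22180 genes that the arrays measured with a single gene symbol. They were taken by name and by no rule on their values, though earlier results of these data were known. Each gene stands for its brightest row over the 8 arrays. Only Rgs2 had a further row. The arrays hold RNA of CD8 T cells from the spleens of female C57BL/6 mice that had all received Eµ-TCL1 leukaemia cells, a transgenic mouse model of chronic lymphocytic leukaemia. From week 3 after the transfer, 4 samples' mice were given an isotype control antibody and the other 4 samples' mice an antibody that blocks the interleukin 10 receptor (anti-IL-10R), and cells were sorted at week 5 as Lin-, TCRb+, CD8+, CD127 low, CD44 intermediate to high and PD-1 high. Both groups carry the leukaemia, and none of the 8 arrays holds a sample without leukaemia or without any antibody. The labels do not state the age of the mice, the antibody clone or whether animals were pooled. The comparison asks whether blocking the receptor changed the amount of RNA of these regulators in PD-1 high CD8 T cells.

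RGS proteins shut off signals from G protein coupled receptors. They bind the active, GTP-loaded alpha subunit of the G protein and speed its hydrolysis of GTP, so that alpha and beta-gamma subunits come together again and the signal ends. In lymphocytes the receptors concerned include those for chemokines and lipid mediators, and RGS proteins set how strongly and how long a cell answers such cues. RGS1, RGS2, RGS3, RGS16 and RGS18 belong to the R4 subfamily, most of which are small proteins built around the RGS domain; RGS10 and RGS14 belong to the R12 subfamily and RGS19 to the RZ subfamily.

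The upstream sequences of 5 members (Rgs2, Rgs3, Rgs10, Rgs16 and Rgs19) were held in the RefSeq table used here, for the build GRCm38.p6. Those of Rgs2, Rgs3 and Rgs16 are printed because these R4 genes gave differing patterns on the arrays. The groups were separate for Rgs3, by a gap of only 0.01, and overlapped for Rgs2 and Rgs16. Separate groups were found for 15.3% of all tested genes, and none of these R4 genes passed the threshold given below. A link between sequence and pattern was not tested. Each line holds the 250 bases before an annotated start, 5′ to 3′ on the gene's strand, and capitals mark TGACG or its reverse complement, the core of the cAMP response element (CRE).
Rgs2, chr1:144004150-144004399, minus strand: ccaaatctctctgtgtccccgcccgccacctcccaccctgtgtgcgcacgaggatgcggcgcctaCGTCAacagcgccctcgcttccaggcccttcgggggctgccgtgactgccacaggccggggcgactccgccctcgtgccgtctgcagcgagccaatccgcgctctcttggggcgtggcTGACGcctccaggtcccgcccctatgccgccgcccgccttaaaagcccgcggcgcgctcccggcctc
Rgs3, first start, chr4:62559597-62559846, plus strand: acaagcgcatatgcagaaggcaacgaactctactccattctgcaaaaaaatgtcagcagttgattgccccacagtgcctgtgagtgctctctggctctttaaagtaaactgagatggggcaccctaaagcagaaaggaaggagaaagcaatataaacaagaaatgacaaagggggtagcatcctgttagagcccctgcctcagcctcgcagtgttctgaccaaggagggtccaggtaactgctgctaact
Rgs3, second start, chr4:62619422-62619671, plus strand: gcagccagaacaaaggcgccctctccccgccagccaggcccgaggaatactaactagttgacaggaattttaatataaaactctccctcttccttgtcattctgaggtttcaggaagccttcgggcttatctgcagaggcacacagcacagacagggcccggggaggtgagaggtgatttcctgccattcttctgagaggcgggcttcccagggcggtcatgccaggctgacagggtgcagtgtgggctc
Rgs16, chr1:153740103-153740352, plus strand: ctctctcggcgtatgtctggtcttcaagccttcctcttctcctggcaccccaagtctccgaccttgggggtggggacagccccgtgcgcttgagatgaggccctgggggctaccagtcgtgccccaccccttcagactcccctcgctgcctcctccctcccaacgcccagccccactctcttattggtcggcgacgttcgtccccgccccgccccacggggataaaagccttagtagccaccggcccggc
The Rgs2 window held 2 copies of TGACG, and those of Rgs3 and Rgs16 held none. Of 32851 such windows of all genes, 17.77% held at least 1 copy. The IL-10 receptor is known to signal through STAT3, and the windows were also searched on both strands for the STAT motif TTCNNNGAA, which 7.02% of all windows held. The full CRE TGACGTCA, which contains TGACG, the AP-1 motif TGANTCA and the E-box CACGTG were searched too, and 1.55%, 6.75% and 6.02% of all windows held them. None of these 4 motifs was in any of the 8 windows of the 5 members. A match is a description of letters, and its absence says only that these letters are not in these windows.

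Of the 8 members, 7 had a mean of at least 5.24 on the log2 scale, the median over all rows of the table, and were tested among 12019 genes; Rgs18 lay below it. None of the 7 passed the threshold, an adjusted p below 0.05 by limma with Benjamini-Hochberg adjustment over all tested genes. Of all tested genes 2.53% passed, 1.23% higher and 1.30% lower after blockade. The groups did not overlap for 2 members, Rgs1 and Rgs3, both higher after blockade; of all tested genes 15.3% had groups that did not overlap, and 9.32% did so with higher values after blockade. The same 2 members had an unadjusted p below 0.05, as did 20.0% of all tested genes. The 95% intervals of 6 members lay within a 2-fold change in either direction, and that of Rgs14 reached beyond it. In these bulk samples, a change in RNA per cell and a change in the share of cells that carry the RNA cannot be told apart.

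**Figure D1:**
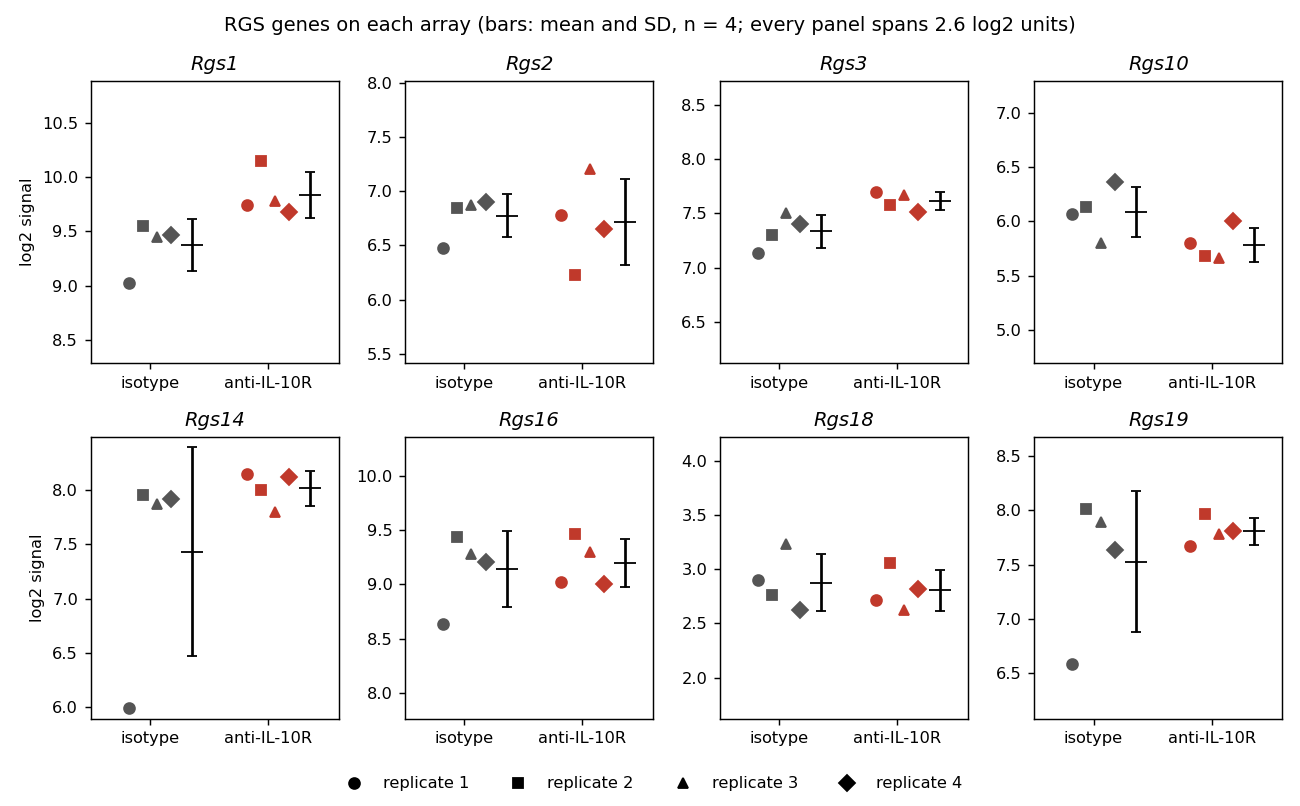
Log2 signal (vertical axis) of each of the 8 RGS genes on the 4 isotype arrays (grey) and the 4 anti-IL-10R arrays (red), with the marker shape giving the replicate number and the bars the mean and SD (n = 4). The groups are separate for Rgs1 and Rgs3, and isotype replicate 1 lies far below the other arrays for Rgs14 (5.99) and Rgs19 (6.58).

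Isotype replicate 1 stood apart from the other arrays before any gene was compared. Across the tested genes its correlation with the other arrays was 0.915 to 0.929, against 0.962 to 0.986 among the other 7. It was the lowest isotype array for 6 of the 8 members, all but Rgs10 and Rgs18, and for 53.6% of all tested genes; 66.3% of the tested genes lay below the mean of the other 3 isotype arrays there. The 9 measured genes listed for CD8 T cells, not all of them markers of the sort, were Cd3d, Cd3e, Cd3g, Cd8a, Cd8b1, Pdcd1, Cd44, Cd5 and Thy1. Their mean was 10.44 on that array, 10.71 to 10.73 on the other isotype arrays and 10.86 to 10.91 on the anti-IL-10R arrays. Of the 9, 5 (Cd3e, Cd3g, Cd8a, Cd8b1 and Pdcd1) had separate groups, higher after blockade, as Rgs1 and Rgs3 did. Results are therefore given with and without that array, and the part of the level of these T cell genes in them was not tested. Of the markers of other cells, 4 of 11 B cell genes lay above the limit for dim genes: Cd79a (mean 5.78), Cd79b (5.95), Bank1 (5.81) and Blk (5.37). All 4 were lower after blockade, none past the threshold. The other 7 B cell genes, Ms4a1 and Pax5 among them, and all 6 measured natural killer cell genes lay below that limit. On isotype replicate 1 the mean of several such lists was the highest of the 8 arrays: 5.66 for monocytes and macrophages (5.22 to 5.40 on the other 7), 4.49 for neutrophils (4.02 to 4.23), 4.61 for natural killer cells (4.17 to 4.35), 6.37 for CD4 and regulatory T cells (6.00 to 6.21) and 5.72 for the 2 measured erythroid genes (5.30 to 5.64). The B cell mean was 5.16 there, within the 4.83 to 5.44 of the others, and the dendritic cell mean, 5.51, was the lowest. Their part in the members' values on that array was not tested. The summed B cell signal was 8.40 to 9.19 (log2) on the isotype and 8.39 to 8.67 on the anti-IL-10R arrays.

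Among the R4 members, Rgs1 differed most, with a modest and fully separated shift. RGS1 is known for damping chemokine-driven migration of lymphocytes. Its log2 signal was 9.02, 9.55, 9.45 and 9.47 on isotype replicates 1 to 4 and 9.74, 10.15, 9.78 and 9.68 on anti-IL-10R replicates 1 to 4. The lowest anti-IL-10R array thus lay above the highest isotype array, by 0.14, and replicate 2 was the highest array of each group. The means were 9.37 ± 0.24 (SD, n = 4) and 9.84 ± 0.21, a difference of 0.47 ± 0.15 (SE) or 1.38-fold (95% CI 1.09 to 1.76, limma adjusted p = 0.131). Without isotype replicate 1 the difference was 0.35 ± 0.12 and the adjusted p 0.107. The difference of Rgs1 was larger than that of 92.63% of all tested genes, and its SE was near the middle of theirs, larger than 51.8%.

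Rgs3, whose product acts on Gi and Gq alpha subunits and also occurs in long forms with further domains, had a smaller shift and the smallest SE of the tested members. The isotype arrays read 7.14, 7.30, 7.5 and 7.40 and the anti-IL-10R arrays 7.70, 7.58, 7.67 and 7.51. The groups did not overlap, though isotype replicate 3 (7.5) and anti-IL-10R replicate 4 (7.51) were almost level. The means were 7.33 ± 0.15 (SD, n = 4) and 7.61 ± 0.09, a difference of 0.28 ± 0.11 (SE), which is 1.21-fold (95% CI 1.02 to 1.45, limma adjusted p = 0.208). Without isotype replicate 1 the difference was 0.21 ± 0.10 (adjusted p 0.194) and its interval reached 0. Neither of the 2 upstream windows of Rgs3 printed above held a searched motif.

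Rgs16, a regulator induced on T cell activation, showed little difference between the groups. It read 8.63, 9.44, 9.28 and 9.21 on the isotype and 9.02, 9.46, 9.30 and 9.0 on the anti-IL-10R arrays. The anti-IL-10R values all lay above isotype replicate 1, while anti-IL-10R replicates 1 and 4 lay below the 3 other isotype arrays. The difference was 0.05 ± 0.19 (SE), or 1.04-fold (95% CI 0.77 to 1.39, limma adjusted p = 0.914). Its sign was not stable: without isotype replicate 1 it was −0.12 ± 0.13, without anti-IL-10R replicate 2 −0.0384, and after quantile normalization −0.0145.

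Rgs2, whose product prefers Gq alpha subunits and is known to be induced by cAMP, had a wider spread on the anti-IL-10R arrays than on the isotype arrays. The isotype arrays read 6.48, 6.84, 6.87 and 6.90, and the anti-IL-10R arrays 6.78, 6.23, 7.20 and 6.65. Both the highest and the lowest of the 8 values were anti-IL-10R arrays, with an SD of 0.40 (n = 4) against 0.20 in the isotype group; the difference between these SDs was not tested. The means were 6.77 and 6.72, a difference of −0.06 ± 0.20 (SE, 95% CI −0.50 to 0.39, limma adjusted p = 0.91). Without anti-IL-10R replicate 2 the difference was 0.11, without anti-IL-10R replicate 3 −0.22 and without isotype replicate 1 −0.15. The further row of Rgs2 was dim, with a mean of 3.45, and differed by −0.21 ± 0.14.

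Rgs18, known from platelets and megakaryocytes, was dim on every array. It read 2.90, 2.76, 3.23 and 2.62 on the isotype and 2.72, 3.06, 2.62 and 2.82 on the anti-IL-10R arrays, all far below 5.24. The groups overlapped, and the difference among all 22180 genes without a filter was −0.07 ± 0.15 (SE, limma adjusted p = 0.87; 0.654% of those genes passed). The sign was positive without isotype replicate 3 (0.0447) and after quantile normalization (0.0171). Of the 8 measured platelet and megakaryocyte markers, 5 were dim as well, Pf4 and Ppbp among them. Itga2b (mean 5.66), Gp9 (6.44) and Treml1 (5.71) lay above 5.24. The mean of the 8 was 4.87 to 5.05 on the isotype and 4.85 to 5.05 on the anti-IL-10R arrays. Of the 22180 genes, 10.3% had groups that did not overlap. Detection above background could not be set, so no statement is made on whether the sorted cells express Rgs18.

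The 2 members of the R12 subfamily pointed in opposite directions, and neither passed. Rgs10, a small protein that acts on Gi alpha subunits, read 6.07, 6.13, 5.80 and 6.36 on the isotype and 5.80, 5.68, 5.66 and 6.00 on the anti-IL-10R arrays. The groups overlapped because isotype replicate 3 lay within the range of the anti-IL-10R arrays. The means were 6.09 ± 0.23 (SD, n = 4) and 5.79 ± 0.16, a difference of −0.30 ± 0.14 (SE), with a 95% interval of −0.62 to 0.0146 and a limma adjusted p of 0.273. It was −0.31 ± 0.15 without isotype replicate 1 and spanned −0.40 to −0.21 when each array was left out in turn, lowest without isotype replicate 3 and highest without isotype replicate 4. Only 11.36% of the tested genes had a difference as low.

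Rgs14, a scaffold that joins an RGS domain to sites for Ras proteins and for inactive Gi alpha subunits, had the largest difference of the members, most of which rested on 1 array. It read 5.99, 7.96, 7.87 and 7.92 on the isotype and 8.15, 8.0, 7.80 and 8.12 on the anti-IL-10R arrays. Isotype replicate 1 was 1.93 below the mean of the other 3 isotype arrays, and 0.932% of the tested genes were as low or lower on that array by this measure. The difference over all arrays was 0.58 ± 0.40 (SE), or 1.5-fold (95% CI 0.81 to 2.78, limma adjusted p = 0.456). Without isotype replicate 1 it was 0.10 ± 0.11, or 1.07-fold (95% CI 0.90 to 1.27, adjusted p 0.613), and the groups then still overlapped.

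Rgs19, the RZ member, which binds Gi alpha subunits and is also named GAIP, shared that pattern. The isotype arrays read 6.58, 8.01, 7.89 and 7.63 and the anti-IL-10R arrays 7.67, 7.97, 7.78 and 7.81. All 4 anti-IL-10R values lay inside the range of isotype replicates 2 to 4. Isotype replicate 1 was 1.26 below the mean of those 3, and 4.67% of the tested genes were as low or lower. The difference was 0.28 ± 0.28 (SE, 95% CI −0.34 to 0.90, limma adjusted p = 0.621), and without isotype replicate 1 it turned to −0.03 ± 0.12 (adjusted p 0.892).

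**Figure D2:**
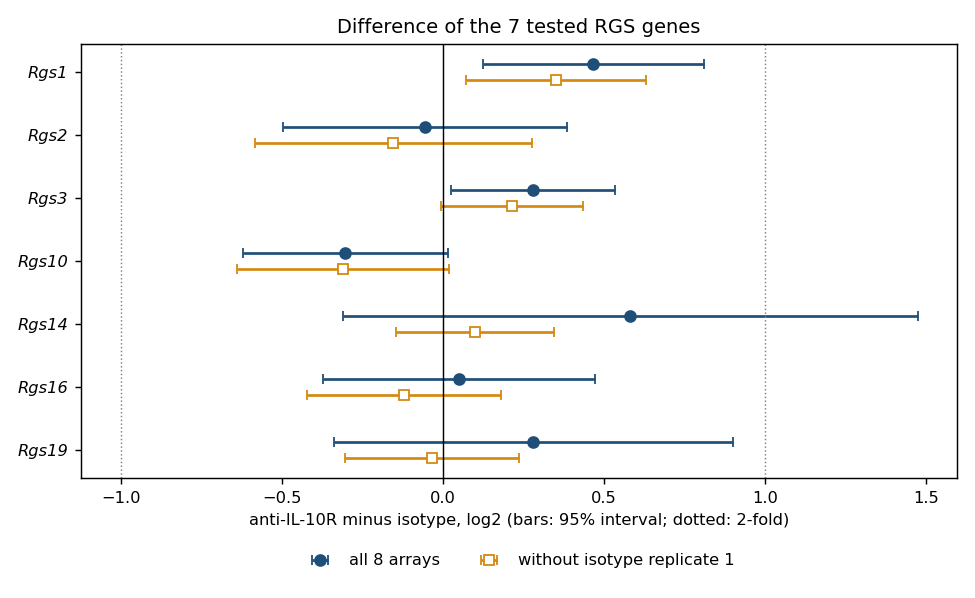
Difference between the groups (anti-IL-10R minus isotype, log2, horizontal axis) of the 7 tested RGS genes with its 95% interval, over all 8 arrays (filled) and without isotype replicate 1 (open); dotted lines mark a 2-fold change. The interval of Rgs14 narrows from −0.31 to 1.47 to −0.15 to 0.34, whereas that of Rgs1 stays above 0 in both fits.

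Taking the 7 tested members side by side, 5 were higher and 2 lower after blockade, with a median difference of 0.28, beside 0.0277 for all tested genes, of which 54.7% were higher. Without isotype replicate 1, 3 members were higher and 4 lower, and the median was −0.0341, beside −0.0069 for all tested genes. That fit called none of the 7, with 9.25% of all tested genes called. The order of the differences thus changed with that array: Rgs14 led with all arrays and Rgs1 without it. The isotype SD was larger than the difference, sign aside, for Rgs2, Rgs14, Rgs16 and Rgs19. It was largest for Rgs14 and Rgs19, at 0.97 and 0.65 (n = 4) against 0.16 and 0.12 on the anti-IL-10R arrays. The SE of Rgs14 was larger than that of 98.3% of the tested genes and the SE of Rgs19 larger than that of 92.1%, while that of Rgs3 was larger than that of 14.1%.

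**Figure D3:**
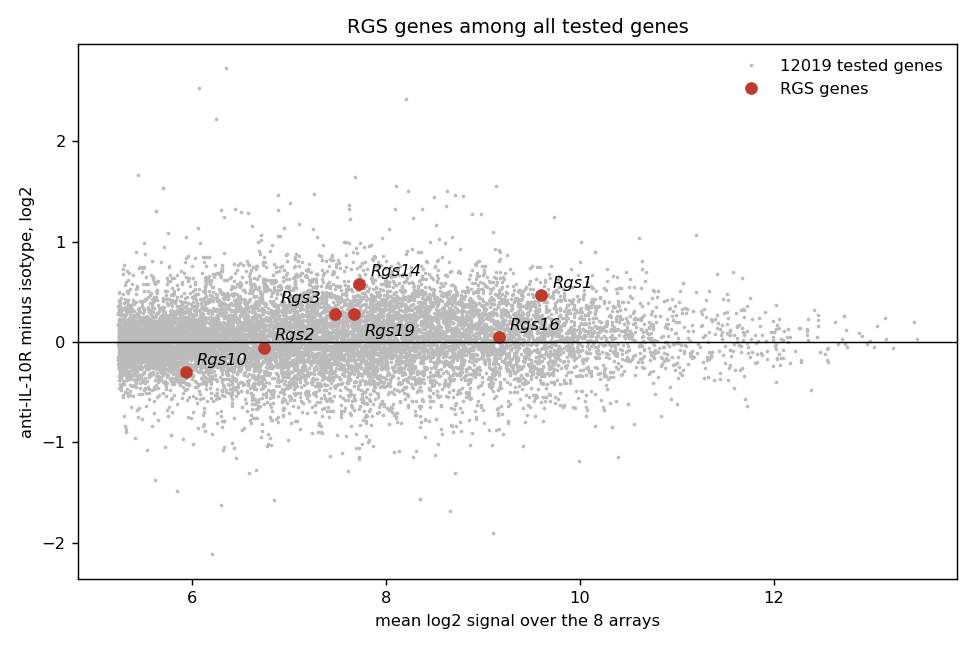
Difference between the groups (anti-IL-10R minus isotype, log2, vertical axis) against the mean log2 signal over the 8 arrays (horizontal axis) for the 12019 tested genes (grey) and the 7 tested RGS genes (red). The RGS genes lie inside the cloud of all genes, between −0.30 for Rgs10 and 0.58 for Rgs14.

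The 13 further RGS genes of the R4, R7, R12 and RZ subfamilies and related proteins were mostly dim. Of them 4 (Rgs8, Rgs9, Rgs11 and Rgs12) were tested, and none passed. Rgs11 differed by 0.24 ± 0.15 (SE, limma adjusted p = 0.406), Rgs8 by 0.21 ± 0.24 and Rgs9 by 0.10 ± 0.14.

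The alpha subunits that RGS proteins act on did not pass either, with all arrays given equal weight. With array weights, where 1469 of 12019 tested genes passed, 1 alpha subunit gene passed, with a higher value. Of 16 listed genes 9 were tested, with a median difference of 0.0081, and no group of arrays was separate. Gna11, of the Gq class, differed by 0.29 ± 0.15 (SE, limma adjusted p = 0.331), Gna13 by −0.14 ± 0.11 and Gnai3, a Gi alpha subunit, by −0.17 ± 0.13. Without isotype replicate 1 the differences were 0.41 ± 0.12 (adjusted p 0.0615), −0.11 ± 0.11 and −0.18 ± 0.14, and no alpha subunit passed. Gnai2, the main Gi alpha subunit of lymphocytes and chosen after its value was seen, read 10.81 ± 0.15 (SD, n = 4) and 10.86 ± 0.08, a difference of 0.05 ± 0.11. Of the beta and gamma subunits 10 were tested with a median of 0.0115 and none passed; Gng2, Gng12 and Gng3 differed by 0.21 ± 0.10, −0.26 ± 0.15 and 0.23 ± 0.15.

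Of the receptor kinases, arrestins and other modulators 9 were tested and none passed over all arrays given equal weight. With array weights, where 1469 of 12019 tested genes passed, 1 of them passed, with a lower value. Grk5, a kinase that marks active receptors for arrestin, differed by 0.75 ± 0.27 (SE, limma adjusted p = 0.163), by 0.53 ± 0.21 without isotype replicate 1. Ric8b, a chaperone of alpha subunits, differed by 0.40 ± 0.16, and by 0.26 ± 0.11 without that array. Gpsm2, which binds inactive Gi alpha subunits and acts in orienting the mitotic spindle, differed by −0.51 ± 0.24 (adjusted p 0.287). Without isotype replicate 1 it passed, with −0.73 ± 0.17 (adjusted p 0.0311), in a fit that called 9.25% of all tested genes.

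On either side of the G protein, 3 genes passed: among 23 tested receptors 1 rose and 1 fell, and among 16 tested effectors 1 rose. Of all tested genes 2.53% passed, and these lists were chosen with earlier results of these data known. Gpr18, a receptor known for positioning CD8 T cells, read 7.70, 7.76, 7.42 and 7.65 on the isotype and 5.51, 6.27, 6.05 and 6.40 on the anti-IL-10R arrays, and fell by 1.57 ± 0.19 (SE, limma adjusted p = 0.017). Cxcr6, the receptor for CXCL16, read 10.06, 10.63, 10.37 and 10.43 and then 10.94, 11.02, 10.99 and 10.97, and rose by 0.61 ± 0.13 (adjusted p 0.0461). Adcy7, an adenylyl cyclase that makes cAMP, read 9.21, 9.0, 9.34 and 9.12 on the isotype and 9.70, 9.70, 9.80 and 9.68 on the anti-IL-10R arrays. It rose by 0.55 ± 0.11, which is 1.46-fold (adjusted p 0.0372), and by 0.56 ± 0.11 without isotype replicate 1. When any 1 array other than isotype replicate 1 was left out, neither Adcy7 (adjusted p 0.0619 to 0.127) nor Cxcr6 (0.06 to 0.138) passed. Gpr18 missed it without isotype replicate 4 (0.0583) and without anti-IL-10R replicate 3 (0.0623) and passed without each of the others. Adcy7 and Cxcr6 also missed it without a filter on dim genes (0.0557 and 0.0687), after median centring (0.0631 and 0.0908) and with the replicate block (0.122 and 0.123), and Gpr18 missed it with the replicate block (0.0546).

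Several further receptor and effector genes missed the threshold over all arrays. Ptger4, a prostaglandin E2 receptor that raises cAMP, differed by 0.67 ± 0.16 (SE, limma adjusted p = 0.0561), and Pde3b, a phosphodiesterase that degrades cAMP, by 0.54 ± 0.13 (adjusted p 0.0615). Gpr174, a receptor for lysophosphatidylserine that was chosen after its value was seen, differed by 0.46 ± 0.13 (adjusted p 0.0864), and Plcb2, a phospholipase C, by 0.52 ± 0.15 (adjusted p 0.0965). The groups of these 4 genes did not overlap. In the fit without isotype replicate 1, where 9.25% of all tested genes were called, 4 of 23 tested receptors and 2 of 16 tested effectors passed. Beside Gpr18, Cxcr6 and Adcy7 these were Ptger4 (0.52 ± 0.09, adjusted p 0.013), Gpr174 (0.54 ± 0.11, adjusted p 0.0202) and Pde3b (0.45 ± 0.10, adjusted p 0.03). The receptor list had a median of 0.18 and the effector list one of 0.27, and 5 of 23 and 6 of 16 tested genes had separate groups, beside the 15.3% of all tested genes given above. These medians were 0.14 and 0.27 without isotype replicate 1.

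**Figure D4:**
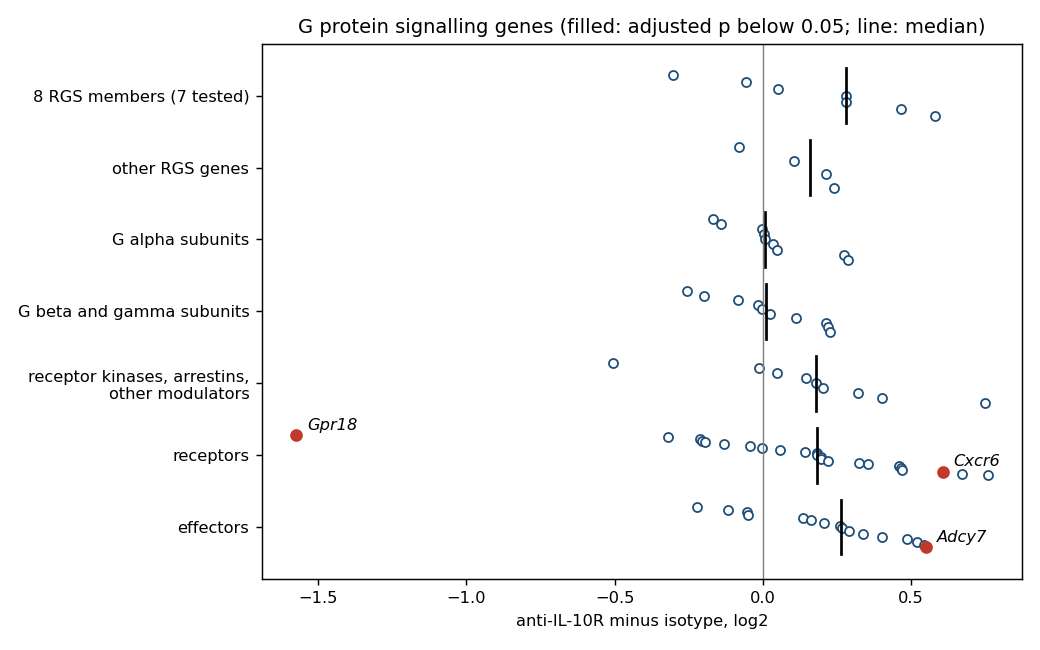
Difference between the groups (anti-IL-10R minus isotype, log2, horizontal axis) of the tested genes of each list, 1 point a gene; filled points had an adjusted p below 0.05 and the vertical lines are the medians. No RGS gene, alpha, beta or gamma subunit or modulator is filled, and Gpr18 (−1.57), Cxcr6 (0.61) and Adcy7 (0.55) are.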

How the data were processed

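Gene expression was measured on 8 GeneChip Mouse Gene 2.0 ST arrays, 1 sample per array, after WT Pico labelling, per the labels' protocols. The authors deposited log2 values, 1 per row and array; the scale was read from their range. The submitters' processing notes name Affymetrix Power Tools; version, algorithm and normalization: not given in the sources used here. Array medians were 5.19 to 5.31. Of 41345 rows, 23521 had 1 gene symbol in the platform annotation, 1814 several and 16010 no entry. The brightest row of each of 22180 genes was kept, and 12019 genes with a mean of at least 5.24 were tested with limma 3.58.1 in R 4.3.3 (lmFit, eBayes, two-sided p, Benjamini-Hochberg adjustment, 9.59 degrees of freedom), which was tested on simulated data. Levels of different genes are not comparable, because probes differ, and having 4 arrays per group limits precision. Nothing states that arrays came from separate animals, so p-values measure the spread between these samples.

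The members, the lists and the alternatives were chosen with earlier results of these data known. Named were the 8 members and, of each list, the genes past the threshold, filled to 3 by the smallest p; genes of similar pattern were to be named only for members past the threshold. Of 118 listed pathway genes 108 were measured and 71 tested. Of the others, only Rgs13 and Rgs21 are described here, from the fit without a filter. The alternatives were filters (none, or a mean of at least 6.97), quantile normalization, median centring, the mean of a gene's rows, trended robust variance, array weights, a replicate block and each array left out.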

Additional observations from a re-analysis of the deposited data

Results flagged for a closer look

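On isotype replicate 1, 2 members lay far from the other 3 isotype arrays. Rgs14 read 5.99 there, against 7.87 to 7.96 on the others, a gap of 0.953 of the group's range. Rgs2 read 6.48, against 6.84 to 6.90, a gap of 0.847 of the range, though for Rgs2 the whole range was 0.43. Both gaps exceed Dixon's critical value for groups of this size, and 16 groups of 4 values were checked; about 1 in 20 groups exceeds it by chance.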

How the results depend on the processing

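None of the RGS members tested passed under any of the 16 alternatives, all fitted with limma. The stricter filter left Rgs2 and Rgs10 untested, and the mean of a gene's rows left Rgs2 untested. Rgs18 was tested only without a filter. The smallest adjusted p of a member was 0.0625, for Rgs1 with array weights (0.0625 to 0.28 over its alternatives). The count over all tested genes, 304, moved widely: 145 without a filter, 460 with the stricter filter, 631 after quantile normalization, 117 after median centring, 1469 with array weights, 4 with the replicate block, and 3 (without isotype replicate 4) to 1112 (without isotype replicate 1) with 1 array left out. Rgs1, Rgs3, Rgs10 and Rgs14 kept their direction under all 16 alternatives. Signs turned for Rgs16 after quantile normalization (−0.0145), with array weights (−0.0545) and with 1 array left out (−0.12 to 0.15). They also turned for Rgs18 after quantile normalization (0.0171), and with 1 array left out for Rgs18 (−0.16 to 0.0447), Rgs2 (−0.22 to 0.11) and Rgs19 (−0.0341 to 0.44). Left-out arrays moved Rgs14 between 0.0987 and 0.76, Rgs1 between 0.35 and 0.53 and Rgs3 between 0.21 and 0.33. The cause of these shifts was not tested. The labels do not state whether samples with the same replicate number are paired. The sample titles carry numbers of their own, which differ between the groups for replicate 1 and match for the other replicates. Deviations of same-numbered arrays from their group means correlated at −0.0495, 0.117, 0.0232 and −0.16. With so few values, and isotype replicate 1 apart from the other arrays, these cannot decide whether the samples are paired. The replicate block, which joins arrays by replicate number and not by title number, called no member and 4 genes in all.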

Other observations

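In the RefSeq annotation of GRCm38.p6, Rgs2, Rgs13, Rgs1, Rgs21 and Rgs18 follow each other on chromosome 1 with no other protein-coding gene between them. Only Rgs1 and Rgs2 of these neighbours had means above the limit for dim genes. Rgs1 had separate groups and was higher after blockade, Rgs2 overlapped, and the dim Rgs13 and Rgs21 differed by −0.26 ± 0.22 (SE) and −0.33 ± 0.15, neither past the threshold (limma adjusted p = 0.661 and 0.359 over all genes without a filter). The groups of Rgs13 overlapped and those of Rgs21 did not, with lower values after blockade. Of all 22180 genes without a filter, 10.3% had groups that did not overlap. Rgs16 lies next to Rgs8 on the same chromosome; they differed by 0.05 ± 0.19 and 0.21 ± 0.24. Values of Rgs13 and Rgs21 were looked at after those of the members were known.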
